A study of Homo sapiens with 6 samples.

Results

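The genes described here are 42 autosomal imprinted genes at 21 loci, taken from a list of gene symbols and matched to the Ensembl identifiers of a table of 62754 genes, in which all 42 were found. RNA-seq was run on HEK293, a line established from human embryonic kidney, with 3 libraries of control cells and 3 of FAM60A-knockout cells, to ask which genes depend on FAM60A, a subunit of the Sin3/HDAC corepressor. The labels also name HEK293T, a derivative of that line that expresses a viral T antigen. Knockout cells had been transfected with Cas9 and guide RNAs against 3 regions of FAM60A and kept under puromycin as a pool, so they were not a single clone. All cells were grown in DMEM with serum, and the labels do not say whether libraries of a group came from separate cultures, so the p-values below measure only the spread between these libraries.

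An imprinted gene is transcribed mainly from the copy inherited from the mother or mainly from the copy inherited from the father. The choice is set in the germ line by DNA methylation at imprinting control regions, and it is maintained after fertilization by DNA methyltransferases and by zinc finger proteins that recruit repressive chromatin. Counts per gene add both copies together, so they give the level of an imprinted gene and not which copy was read, and in bulk RNA fewer cells that express a gene cannot be told apart from less RNA per cell.

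Total counts lay between 88361827 and 93346824 per library. FAM60A, listed under its current symbol SINHCAF, was read 11028, 10165 and 12792 times in controls, against 5684, 5793 and 5449 times in knockouts. It fell by 0.85 on the log2 scale (standard error, SE, 0.11, adjusted p = 0.00863, edgeR quasi-likelihood test with Benjamini-Hochberg adjustment over 20992 genes). That call was lost in each fit that left out a knockout library, with an adjusted p of up to 0.0736. Control replicate 3 stood apart from the other controls. Over all genes tested, 59% had a level in control replicate 3 nearer to the knockout mean than to the mean of control replicates 1 and 2, and 6.57% differed there at least 4-fold from both other controls. The summed counts of 8 kidney progenitor, epithelial and neuronal genes typical of HEK293 were 160396 and 163338 in control replicates 1 and 2, 89112 in control replicate 3 and then 65798 to 77527 in the knockout, and the part of this difference in the results below was not tested. KRT8 and VIM made up most of that sum, and not every gene moved with it: in control replicates 1, 2 and 3, PAX2 had 144, 161 and 577 counts, NEFL 7638, 7754 and 13798, and NEFM 168, 192 and 188. Of 4 matched markers of blood, liver, heart and glia, PTPRC, ALB and MYH7 had at most 9 counts in any library, and the 4 together summed to 67 to 149 counts across the controls against 79 to 88 in the knockout.

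Of the 42 imprinted genes, 29 had enough counts to be tested. Compared with the controls, 5 fell in the knockout, which is 17.2% of those tested beside 8.67% of all genes: GNAS-AS1, L3MBTL1, MEST, GNAS and GRB10. None rose by edgeR (7.96% of all genes did), and 1 gene, RB1, was higher at an unadjusted p under 0.05. DESeq2 called RB1 higher as the only rise, and limma-voom called no rise, with 2 genes higher at an unadjusted p under 0.05. At least 2-fold, 3 imprinted genes fell and none rose, beside 3.72% and 3.34% of all genes. The median log2 fold change of the 29 genes was -0.04, and that of all genes tested was -0.008. The 3 genes with 2-fold falls, GNAS-AS1, L3MBTL1 and MEST, are all known for expression from the paternal copy, a class with 23 genes listed and 13 tested. GNAS and GRB10 belong to 12 genes, all tested, that were listed here without a parental copy.

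**Figure D1:**
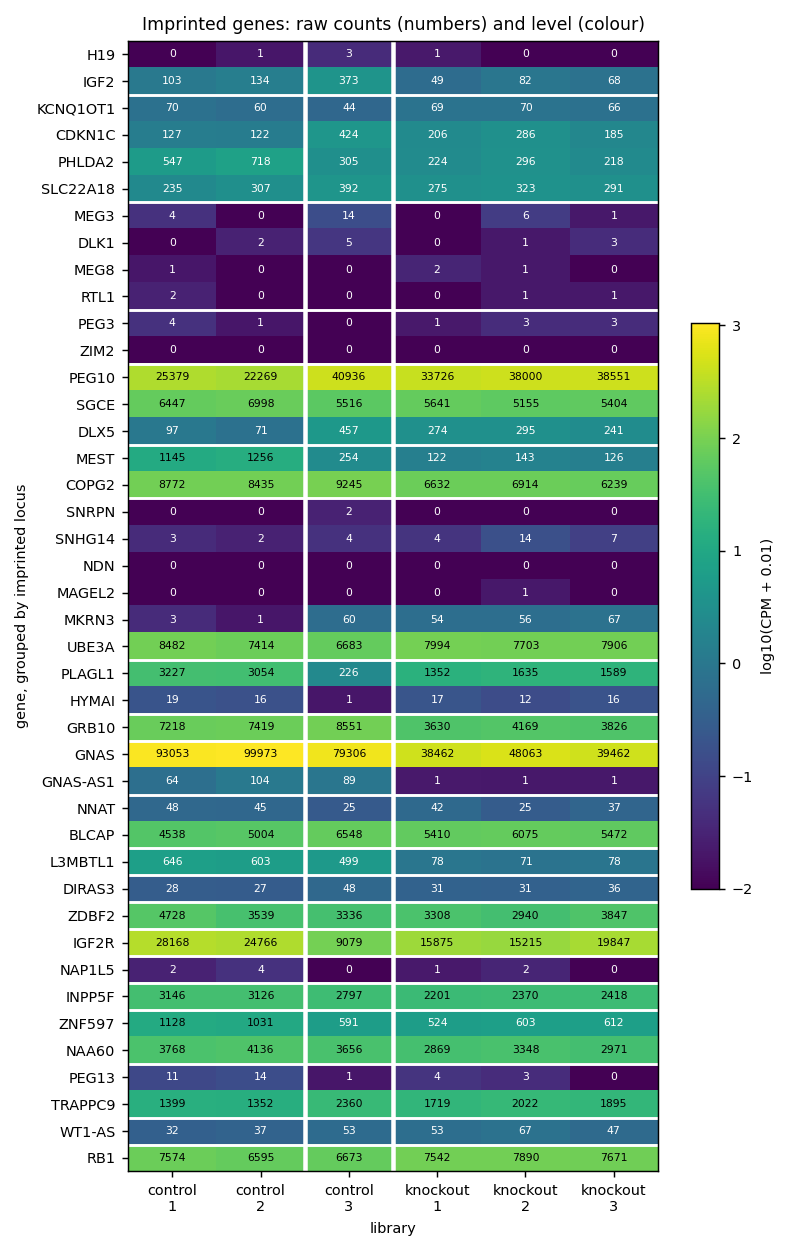
Level of the 42 imprinted genes in each library, with raw counts printed in the cells and log10(CPM + 0.01) as colour (CPM is the count scaled by the TMM-adjusted library size), and white lines between loci and around control replicate 3. GNAS had the most counts, with 38462 to 99973 per library, while NDN and ZIM2 had 0 in every library.

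The reference sequence just upstream of 6 imprinted genes described below is shown first, because imprinting control regions are often CpG-rich and carry the hexamer TGCCGC bound by ZFP57, the zinc finger protein that protects imprints. Each sequence is the 250 bases before an annotated start in RefSeq (GRCh38.p14), 5′ to 3′ on the strand of the gene, with CpG dinucleotides in capitals, and where a gene had several starts the window with most CpG was taken. MEST windows tied for most CpG, and of these the one with the lower coordinate was taken. GNAS-AS1, IGF2 and DLX5 are not shown, since the promoter table used here held no window under their symbols. The windows are chr6:144008260-144008509 (minus strand), chr20:43507447-43507696 (plus), chr7:130486097-130486346 (plus), chr15:23565424-23565673 (plus), chr20:58888930-58889179 (plus) and chr7:50792875-50793124 (minus).
PLAGL1: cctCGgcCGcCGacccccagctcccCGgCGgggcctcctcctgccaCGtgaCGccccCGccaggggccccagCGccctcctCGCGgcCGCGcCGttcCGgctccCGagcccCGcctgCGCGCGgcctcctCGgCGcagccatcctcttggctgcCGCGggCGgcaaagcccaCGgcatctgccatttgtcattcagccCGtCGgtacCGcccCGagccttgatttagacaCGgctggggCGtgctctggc
L3MBTL1: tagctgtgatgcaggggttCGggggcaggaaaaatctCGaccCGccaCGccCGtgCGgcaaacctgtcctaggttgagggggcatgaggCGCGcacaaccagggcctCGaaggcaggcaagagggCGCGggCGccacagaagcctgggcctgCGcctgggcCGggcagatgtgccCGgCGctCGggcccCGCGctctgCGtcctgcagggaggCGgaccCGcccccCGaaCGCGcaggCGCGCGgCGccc
MEST: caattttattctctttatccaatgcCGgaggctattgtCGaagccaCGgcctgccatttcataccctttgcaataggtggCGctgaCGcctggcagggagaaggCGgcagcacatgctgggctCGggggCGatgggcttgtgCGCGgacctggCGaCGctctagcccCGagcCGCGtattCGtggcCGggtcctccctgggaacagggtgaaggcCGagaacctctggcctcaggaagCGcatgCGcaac
MKRN3: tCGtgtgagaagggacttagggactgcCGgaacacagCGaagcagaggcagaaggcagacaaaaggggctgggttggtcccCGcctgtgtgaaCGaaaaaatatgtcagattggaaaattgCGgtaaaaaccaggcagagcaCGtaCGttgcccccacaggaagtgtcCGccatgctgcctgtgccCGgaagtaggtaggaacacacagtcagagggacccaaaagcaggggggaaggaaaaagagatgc
GNAS: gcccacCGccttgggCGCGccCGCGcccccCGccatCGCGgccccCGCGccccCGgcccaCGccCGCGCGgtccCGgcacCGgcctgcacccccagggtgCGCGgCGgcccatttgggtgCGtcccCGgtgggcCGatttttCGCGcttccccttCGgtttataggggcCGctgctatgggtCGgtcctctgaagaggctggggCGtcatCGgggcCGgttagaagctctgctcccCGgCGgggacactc
GRB10: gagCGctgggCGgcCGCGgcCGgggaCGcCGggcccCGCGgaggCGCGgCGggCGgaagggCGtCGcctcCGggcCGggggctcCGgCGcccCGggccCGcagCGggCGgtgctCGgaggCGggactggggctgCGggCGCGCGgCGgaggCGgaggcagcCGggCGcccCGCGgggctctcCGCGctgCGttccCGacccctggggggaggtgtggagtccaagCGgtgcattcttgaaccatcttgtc
The PLAGL1 window held 32 CpG and 2 matches to TGCCGC on either strand, and it was identical to the window of HYMAI, which starts at the same place. The L3MBTL1 window held 29 CpG and 1 match, and the MEST window 20 CpG and 1 match. A further MEST window (chr7:130491835-130492084) also held 20 CpG but no match, and the remaining MEST windows held no match either. The windows of MKRN3, GNAS and GRB10 held 10, 33 and 40 CpG and no match, although another window of GNAS and another of GRB10 held 1 match each. Of the imprinted genes, 26 had an entry in the promoter table, with 57 windows whose median was 16 CpG, against 11 over all 35116 windows. TGCCGC was present in 28.1% of the 57 windows and in 12.7% of all, and AANATGGC, a motif of YY1, in 7.02% and 3.86%. TGCCGC itself contains a CpG, and its share was not separated from the higher CpG content of these windows. Several windows belong to 1 gene or overlap, and a match of letters is not a bound site.

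At the GNAS locus on chromosome 20, both listed genes fell. GNAS (58839748 to 58911192 on GRCh38) encodes the stimulatory G protein alpha subunit together with imprinted alternative transcripts, and GNAS-AS1 (58818918 to 58850902) is a noncoding antisense transcript read from the paternal copy. GNAS-AS1 reached 64, 104 and 89 counts across the controls, against 1 count in each knockout library. The groups were far apart, and control replicate 3 lay with the other controls. The scaled level in the controls was 76.9 times that in the knockout, with a 95% exact counting interval of 26 to 375 that covers counting error only. The edgeR log2 fold change was -6.11 (SE 0.37, adjusted p = 0.00155), a size that depends on the prior count, and it was -6.11 (adjusted p = 1.83e-10) without control replicate 3. The call held in all 11 alternatives that could test the gene (adjusted p from 1.83e-10 to 0.0375).

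GNAS itself had 93053, 99973 and 79306 counts across the controls against 38462, 48063 and 39462 in the knockout. Every knockout library was below every control, and control replicate 3 was the lowest control. The level was 939 ± 111 CPM across the controls against 484 ± 55.6 CPM in the knockout (SD, n = 3 each), which gave -0.96 on the log2 scale (SE 0.14, edgeR adjusted p = 0.0103). It was -1.08 without control replicate 3, and the call was lost without knockout replicate 1 (adjusted p = 0.079) or knockout replicate 3 (adjusted p = 0.0746). GNAS and GNAS-AS1 share exon sequence on opposite strands. The libraries are described as strand-specific, but the strand setting used in counting was not given in the sources used here. The same limit holds for the pairs MEST and COPG2, PEG10 and SGCE, SNHG14 and UBE3A, NNAT and BLCAP, KCNQ1OT1 and KCNQ1, and WT1-AS and WT1, which also share exon sequence. It holds as well for MKRN3 and ENSG00000260978, described below. A further antisense gene at GNAS, ENSG00000225806, chosen after its values were seen, had 68, 64 and 34 counts across the controls against 1, 0 and 2 in the knockout. Of 5 neighbours tested at this locus, CTSZ, a lysosomal protease chosen after its values were seen, rose (log2 fold change 0.51, edgeR adjusted p = 0.0439, called in 3 of 12 alternatives and, of the fits that left out a library, only in that without control replicate 3), and STX16, NPEPL1, NELFCD and TUBB1 did not pass the test (log2 fold changes -0.40, 0.33, -0.11 and -0.20).

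L3MBTL1 (chromosome 20, 43507697 to 43550954 on GRCh38) encodes a chromatin-compacting protein that binds methylated histones and is read from the paternal copy. Its counts were 646, 603 and 499 across the controls against 78, 71 and 78 in the knockout. The groups did not overlap, and control replicate 3 was closer to the other controls than to the knockout. The level was 6.03 ± 0.77 CPM across the controls against 0.873 ± 0.0591 CPM in the knockout (SD, n = 3 each). On the log2 scale L3MBTL1 fell by 2.79 (SE 0.19, edgeR adjusted p = 0.00197), and by 2.92 (adjusted p = 2.3e-14) without control replicate 3. L3MBTL1 was called in all 12 alternatives, with an adjusted p from 5.28e-39 to 0.0437. It shares exon sequence with other genes on the same strand, so its counts could miss reads. Of its neighbours, IFT52, an intraflagellar transport gene, fell (log2 fold change -0.76, edgeR adjusted p = 0.0105, called in 8 of 12 alternatives and lost without each knockout library in turn), and the splicing factor gene SRSF6 had a log2 fold change of -0.50 with an adjusted p of 0.089.

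MEST (chromosome 7, 130486175 to 130506465 on GRCh38) encodes an alpha/beta hydrolase-fold protein of mesoderm and is read from the paternal copy. MEST counts were 1145 and 1256 for control replicates 1 and 2, 254 in control replicate 3 and then 122, 143 and 126 in the knockout. Control replicate 3 lay between the other controls and the knockout, 4.73-fold below the mean of control replicates 1 and 2 and nearer to the knockout. On the log2 scale MEST fell by 2.61 (SE 0.58, edgeR adjusted p = 0.0315) with all controls and by 3.08 (adjusted p = 8.1e-16) without control replicate 3. Of 12 alternatives, 5 kept the call. It was lost with limma-voom, with a replicate block and in every fit that left out 1 of the other 5 libraries, where the adjusted p reached 0.145. COPG2, a coatomer subunit gene that overlaps the end of MEST on the opposite strand, had 8772, 8435 and 9245 counts across the controls against 6632, 6914 and 6239 in the knockout. Its groups did not overlap, but at a log2 fold change of -0.26 it did not pass the test (edgeR adjusted p = 0.0926, and 0.00507 without control replicate 3). Of the neighbours, the ciliary gene CEP41 fell (log2 fold change -0.81, edgeR adjusted p = 0.00683), a call kept in 9 of 12 alternatives and lost without knockout replicate 1 or 3. CPA4, a carboxypeptidase gene named after its values were seen, had 647 and 768 counts in control replicates 1 and 2, 3 in control replicate 3 and then 8 to 11 in the knockout (adjusted p = 0.0647).

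GRB10 (chromosome 7, 50590068 to 50793453 on GRCh38) encodes an adaptor that binds the insulin and IGF1 receptors and restrains growth. Its counts were 7218, 7419 and 8551 across the controls against 3630, 4169 and 3826 in the knockout. The groups did not overlap, and control replicate 3 was the highest library, on the side away from the knockout. The level was 79.9 ± 7.52 CPM across the controls against 44.6 ± 2.49 CPM in the knockout (SD, n = 3 each), which gave -0.84 on the log2 scale (SE 0.10, edgeR adjusted p = 0.00762). Without control replicate 3 the log2 fold change was -0.79 (adjusted p = 7.61e-09). The call was lost with a replicate block (adjusted p = 0.0528) and without knockout replicate 1 (0.0722) or 3 (0.0699).

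**Figure D2:**
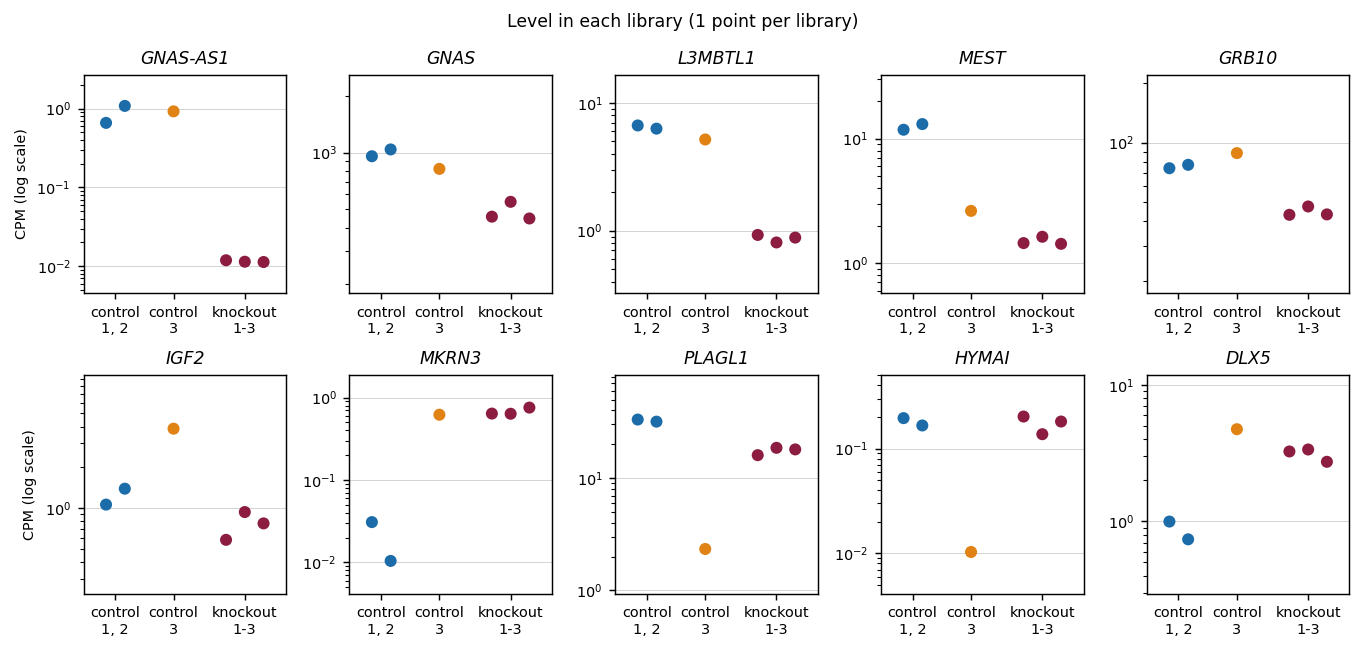
CPM of 10 imprinted genes in each library on log axes of differing range, 1 point per library, with control replicates 1 and 2 in blue, control replicate 3 in orange and the knockout in dark red. GNAS-AS1, GNAS, L3MBTL1 and GRB10 kept control replicate 3 with the controls, whereas for MKRN3 it lay with the knockout and for PLAGL1 and HYMAI it was below every other library.

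Across the genes tested, 8 were lower and 4 higher in every knockout library than in every control, which is 27.6% and 13.8% beside 20.1% and 21.5% of all genes. An exact permutation test of 3 against 3 libraries cannot go below a two-sided p of 0.1. Besides the 5 that fell, the lower genes were IGF2, COPG2 and INPP5F, and the higher genes were KCNQ1OT1, MKRN3, UBE3A and RB1. Control replicate 3 was nearer to the knockout mean for 20 of the 29 genes (69%), and at least 4-fold from both other controls for 5 of them (17.2%): MEST, MKRN3, PLAGL1, HYMAI and DLX5. When control replicate 3 was left out, 14 of the 29 fell and 8 rose (48.3% and 27.6%), beside 33.2% and 32.4% of all genes.

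MKRN3, a ring finger gene of the Prader-Willi region that restrains the onset of puberty and is read from the paternal copy, was set apart from the other controls in control replicate 3. MKRN3 counts were 3 and 1 for control replicates 1 and 2, 60 in control replicate 3 and then 54, 56 and 67 in the knockout. Control replicate 3 was at the knockout level, and the scaled level in the knockout was 32.9 times that of control replicates 1 and 2 (95% exact counting interval 12.6 to 122, counting error only). With all controls the value was 1.62 on the log2 scale (SE 1.12, edgeR adjusted p = 0.35), and without control replicate 3 it was 4.92 (adjusted p = 2.57e-09). An overlapping gene, ENSG00000260978, named after its values were seen, had 0 and 1 counts in control replicates 1 and 2, 13 in control replicate 3 and then 10 to 15 in the knockout. In the same cluster SNRPN, NDN and MAGEL2 had at most 2 counts in any library. The noncoding SNHG14, which was not tested, had 3, 2 and 4 counts across the controls against 4, 14 and 7 in the knockout. Its scaled levels did not overlap between the groups, at counts near the floor. SNRPN, MAGEL2 and SNHG14 share exon sequence with other genes on the same strand, so their counts could miss reads. UBE3A, the ubiquitin ligase of Angelman syndrome, had 8482, 7414 and 6683 counts across the controls against 7994, 7703 and 7906 in the knockout (log2 fold change 0.22, edgeR adjusted p = 0.205). Among the neighbours there, the phospholipid transporter gene ATP10A rose (log2 fold change 1.42, edgeR adjusted p = 0.0294), a call kept in 6 of 12 alternatives and, of the fits that left out a library, only in that without control replicate 3.

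PLAGL1, a zinc finger transcription factor, and HYMAI, a noncoding RNA from the same promoter, are read from the paternal copy and were set apart in control replicate 3. PLAGL1 had 3227 and 3054 counts in control replicates 1 and 2, 226 in control replicate 3 and then 1352, 1635 and 1589 in the knockout. The knockout lay between the controls, 7.51-fold above control replicate 3 and below both other controls. HYMAI had 19 and 16 counts in control replicates 1 and 2, 1 in control replicate 3 and then 17, 12 and 16 in the knockout. Its scaled level in control replicates 1 and 2 was 17.5 times that in control replicate 3, with a 95% exact counting interval of 2.94 to 711. Neither gene passed the test with all controls (log2 fold changes -0.35 and 0.48, edgeR adjusted p = 0.79 and 0.687). Without control replicate 3, PLAGL1 fell (log2 fold change -0.92, adjusted p = 3.12e-09) and HYMAI did not pass (-0.10). The genes share exon sequence on 1 strand, so reads could be split between them. The 5 neighbours tested at this locus, named after their values were seen, were also lower in control replicate 3. Relative to control replicates 1 and 2, STX11 was at 0.342 there, LTV1 at 0.429 and PHACTR2 at 0.43. UTRN was at 0.476 and SF3B5 at 0.665, beside 0.072 for PLAGL1 and 0.0572 for HYMAI.

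In the H19-IGF2 domain, the fetal growth factor gene IGF2 had 103, 134 and 373 counts across the controls against 49, 82 and 68 in the knockout. The groups did not overlap and control replicate 3 was the highest library, yet the gene did not pass the test (log2 fold change -1.46, SE 0.52, edgeR adjusted p = 0.104). DESeq2 called it (adjusted p = 0.028), and without control replicate 3 the log2 fold change was -0.71 (edgeR adjusted p = 0.00395). IGF2 shares exon sequence on the same strand with INS-IGF2 and other genes, so its counts could miss reads. INS-IGF2 had 0 counts in every library. The noncoding H19 had at most 3 counts in any library.

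In the neighbouring KCNQ1OT1 domain none of the 4 genes passed the test by edgeR, and PHLDA2 had an unadjusted p of 0.0295. PHLDA2, a placental growth restrictor, had 547, 718 and 305 counts across the controls against 224, 296 and 218 in the knockout (log2 fold change -0.93, edgeR adjusted p = 0.105, and -1.24 with adjusted p = 6.99e-08 without control replicate 3). DESeq2 called it (adjusted p = 0.0333), while limma-voom did not. CDKN1C, a cyclin-dependent kinase inhibitor, had 127, 122 and 424 counts across the controls against 206, 286 and 185 in the knockout. Its log2 fold change was 0.16 with all controls and 0.98 (adjusted p = 3.48e-05) without control replicate 3, and it was below 0 in the fits without control replicate 1 or 2 or knockout replicate 2. The silencing noncoding RNA KCNQ1OT1 had 44 to 70 counts in all libraries, and the transporter gene SLC22A18 had 235 to 392.

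PEG10, a retrotransposon-derived gene needed in placenta, had 25379, 22269 and 40936 counts across the controls against 33726, 38000 and 38551 in the knockout. Control replicate 3 was at the knockout level after scaling, and the log2 fold change moved from 0.47 (edgeR adjusted p = 0.2) to 0.75 (adjusted p = 1.23e-07) without it. SGCE, the sarcoglycan gene that shares its promoter region, had 5155 to 6998 counts (log2 fold change -0.07, adjusted p = 0.71). DLX5, a homeobox gene of the same region, had 97 and 71 counts in control replicates 1 and 2, 457 in control replicate 3 and then 274, 295 and 241 in the knockout. Its level in control replicate 3 was 5.45-fold that of the other controls, and the log2 fold change was 0.53 (adjusted p = 0.624) with it and 1.81 (adjusted p = 3.47e-09) without it.

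IGF2R, the receptor that clears IGF2, had 28168 and 24766 counts in control replicates 1 and 2, 9079 in control replicate 3 and then 15875, 15215 and 19847 in the knockout. The knockout lay between the controls, and the log2 fold change was -0.13 (edgeR adjusted p = 0.844) with control replicate 3 and -0.52 (adjusted p = 7.7e-05) without it. Beside it the cation transporter gene SLC22A3 rose (log2 fold change 0.96, edgeR adjusted p = 0.0248), a call kept in 5 of 12 alternatives, of which the fit without control replicate 3 was the only one that left out a library.

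RB1, the retinoblastoma tumour suppressor, had 7574, 6595 and 6673 counts across the controls against 7542, 7890 and 7671 in the knockout. The scaled levels did not overlap, at 71.8 ± 5.22 and 88.7 ± 1.67 CPM (SD, n = 3 each), with a log2 fold change of 0.30 and an edgeR adjusted p of 0.0631. Its neighbour RCBTB2 fell (log2 fold change -0.58, edgeR adjusted p = 0.037), a call kept in 5 of 12 alternatives and, of the fits that left out a library, only in that without control replicate 3. INPP5F, a phosphoinositide phosphatase, had 3146, 3126 and 2797 counts across the controls against 2201, 2370 and 2418 in the knockout (log2 fold change -0.22, edgeR adjusted p = 0.159).

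At the PEG13-TRAPPC9 locus on chromosome 8, the trafficking gene TRAPPC9 had 1399, 1352 and 2360 counts across the controls against 1719, 2022 and 1895 in the knockout (log2 fold change 0.30, edgeR adjusted p = 0.412). The noncoding PEG13 was not tested, with 11 and 14 counts in control replicates 1 and 2, 1 in control replicate 3 and then 0 to 4 in the knockout. Without control replicate 3 it could be tested, and it fell (log2 fold change -2.24, edgeR adjusted p = 0.00416). Of 4 neighbours tested there, 3 rose: the potassium channel gene KCNK9 (34, 47 and 85 counts in controls, 186, 161 and 184 in the knockout, log2 fold change 1.83, edgeR adjusted p = 0.0224), the small RNA effector AGO2 (0.83, adjusted p = 0.00863) and the chromatin remodelling subunit CHRAC1 (0.79, adjusted p = 0.00987). KCNK9 was called in 6 of 12 alternatives and, of the fits that left out a library, only in that without control replicate 3, and its adjusted p over the alternatives, from edgeR, DESeq2 or limma, reached 0.113. AGO2 was called in 9 and CHRAC1 in 8 of 12 alternatives.

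The other genes tested did not pass the test by edgeR with all controls. BLCAP, an apoptosis-linked gene, had 4538, 5004 and 6548 counts across the controls against 5410, 6075 and 5472 in the knockout, and the neuronal gene NNAT inside it had 25 to 48. ZNF597, a zinc finger gene, had 1128, 1031 and 591 counts across the controls against 524, 603 and 612 in the knockout (log2 fold change -0.51, edgeR adjusted p = 0.217), while the acetyltransferase gene NAA60 beside it had 3768, 4136 and 3656 against 2869, 3348 and 2971. ZDBF2, a growth-linked zinc finger gene, had 4728, 3539 and 3336 counts across the controls against 3308, 2940 and 3847 in the knockout. The GTPase gene DIRAS3 had 28, 27 and 48 against 31, 31 and 36, and the antisense RNA WT1-AS had 32, 37 and 53 against 53, 67 and 47.

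The 13 genes not tested had at most 14 counts in any library, and 7 of them had at most 3 in every library. At the DLK1-MEG3 cluster the noncoding MEG3 had 4, 0 and 14 counts across the controls against 0, 6 and 1 in the knockout, and DLK1, MEG8 and RTL1 had at most 5. PEG3 had 4, 1 and 0 counts across the controls against 1, 3 and 3 in the knockout, and NAP1L5 had 2, 4 and 0 and 1, 2 and 0. PEG3, ZIM2, PEG13, MEG3 and MEG8 share exon sequence with other genes on the same strand, so their counts could miss reads. Apart from SNHG14, described above, the groups overlapped at the 13 genes not tested. The PEG13 groups did not overlap when control replicate 3 was left out. With all controls, the counts of the 13 genes were too low for the test to show a difference.

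**Figure D3:**
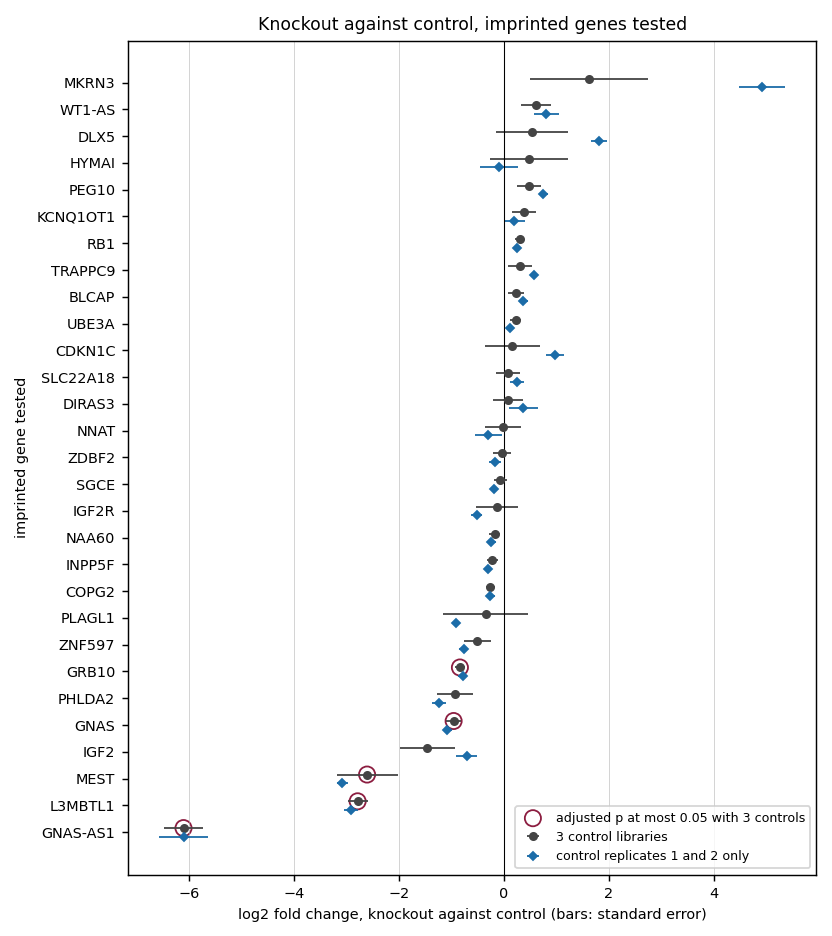
Log2 fold change of knockout against control (x axis) for the 29 imprinted genes tested, with all 3 controls (grey circles) and with control replicates 1 and 2 only (blue diamonds); bars are SE and red rings mark an adjusted p of at most 0.05 with 3 controls. Between the fits GRB10 moved from -0.84 to -0.79, while MKRN3 went from 1.62 to 4.92 and DLX5 from 0.53 to 1.81.

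Genes that lie next to the imprinted ones and are not among the 42 are called neighbours here. A neighbour could itself be imprinted, which was not examined, so these genes are not a background without imprinting. Of 97 listed, 96 were matched and 79 tested, and 8 fell and 7 rose (10.1% and 8.86%, beside 8.67% and 7.96% of all genes). Without control replicate 3, 29 fell and 28 rose (36.7% and 35.4%, beside 33.2% and 32.4%). GNAS-AS1, L3MBTL1 and MEST each had a lower log2 fold change than the neighbour called at its own locus, although the value of CPA4 beside MEST, which did not pass the test, was lower still at -5.44.

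**Figure D4:**
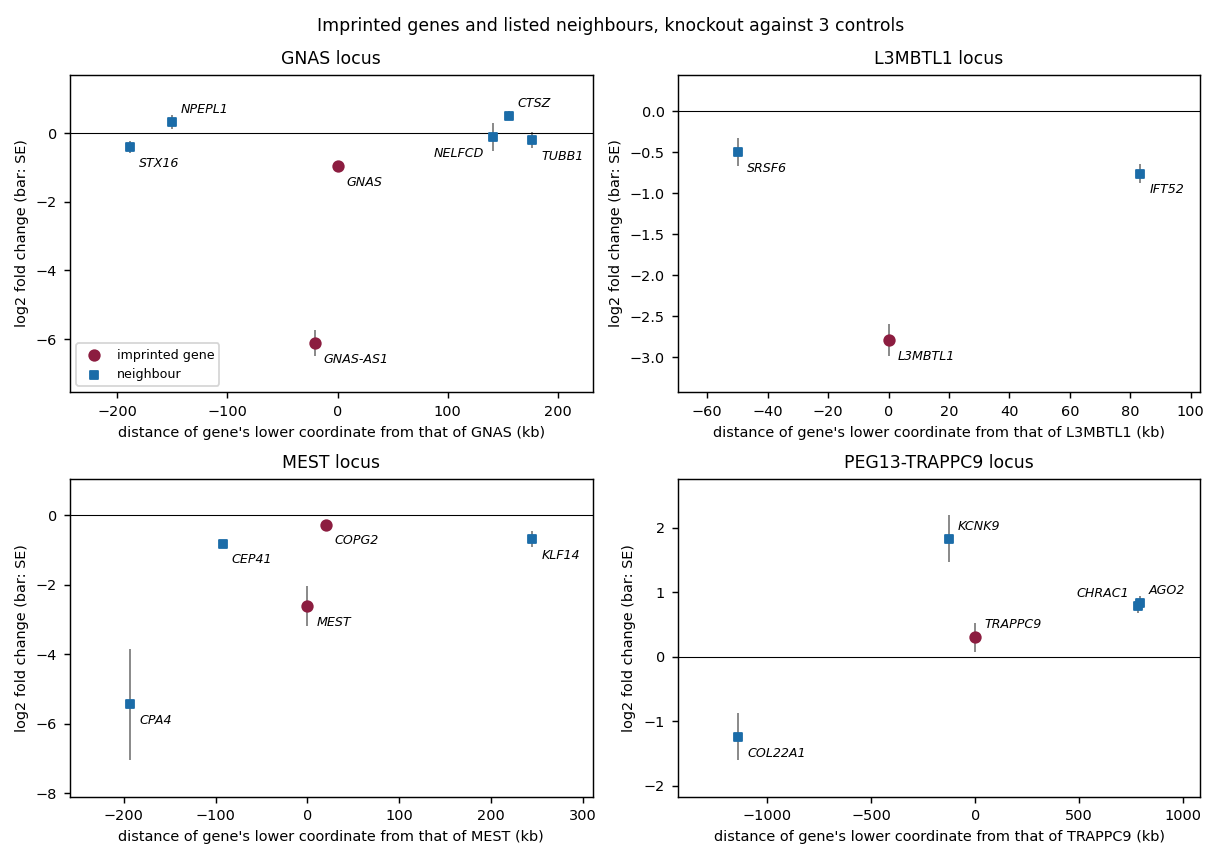
Log2 fold change (y axis, bars are SE) of the listed imprinted genes (dark red circles) and tested neighbours (blue squares). The x axis is the distance in kb between their lower coordinates and that of GNAS, L3MBTL1, MEST or TRAPPC9. At the GNAS locus GNAS-AS1 lay at -6.11 and GNAS at -0.96 while the neighbours lay between -0.40 and 0.51.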

How the data were processed

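Poly(A) RNA of 6 libraries was sequenced, 3 from control and 3 from knockout cells. The authors deposited raw read counts per Ensembl gene without normalization. The sources differ on how they were made: the study's methods name poly(A)-selected, strand-specific libraries, Trimmomatic and Salmon on hg38, the submitters' processing notes name STAR 2.7.10b, featureCounts 2.0.0 and hg38, and a label names hg19. Gene coordinates and promoter sequences were taken from RefSeq GRCh38.p14.

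Counts were fitted with edgeR 4.0.16 in R 4.3.3 (TMM, filterByExpr with a minimum count of 10, two-sided quasi-likelihood F-test, Benjamini-Hochberg adjustment over all 20992 genes, calls at an adjusted p of at most 0.05). The standard error is the log2 fold change divided by the root of F. CPM used TMM-scaled library sizes. Alternatives were DESeq2 1.42.0, voom from limma 3.58.1 after quantile normalization, plain library size, testing every gene or those with at least 10 counts in every library, a replicate block, and leaving out each library. Fits were tested on simulated data. Exact counting intervals used scipy in Python 3.11.15. The imprinted genes and the lists of neighbours, regulators and markers were chosen with earlier results of these data known.

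Values per library were given for genes with an adjusted p of at most 0.05, a log2 fold change of 1 or more in size, no overlap with a 1.5-fold ratio of means, or a control replicate 3 at least 4-fold from both other controls, and for the highest gene of each locus. Neighbours and regulators were named where called, up to 10 by absolute log2 fold change, and others are said to be chosen after their values were seen. HERC3 matched 2 identifiers and was not used, and PECAM1 was not matched. Some called neighbours are counted but not reported here by name.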

Additional observations from a re-analysis of the deposited data

How the results depend on the processing

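Leaving out control replicate 3 changed most: the called imprinted genes went from 5 to 23 (22 of the 29 tested with all libraries, and PEG13), and over the 6 fits that left out 1 library they ranged from 2 to 23, those called at least 2-fold from 2 to 8, called neighbours from 1 to 57 (15 with all libraries), called regulators from 0 to 15 (4 with all libraries), the median log2 fold change from -0.22 to -0.02, and imprinted genes without overlap from 12 to 25. Without knockout replicate 1 or 3, 2 imprinted genes were called in each case. DESeq2 called 9 imprinted genes and 8 regulators. With library size in place of TMM, 7 regulators were called and the median was -0.15, the median of all genes shifting by -0.11. Without a filter 8 neighbours were called. With a replicate block, 3 imprinted genes, 1 neighbour and 0 regulators (8 at an unadjusted p under 0.05) were called by edgeR. The replicate numbers did not pair the libraries, since the correlations of same-numbered deviations were 0.0101, 0.0306 and -0.0362 over 20992 genes.

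None of the 5 imprinted genes called by edgeR with all libraries changed direction. Direction changed for genes not called in that fit. PLAGL1 was 0.42 with limma-voom and 0.20 with the replicate block, and IGF2R was 0.00 with the replicate block. With library size in place of TMM, direction changed for SLC22A18 and DIRAS3, both at -0.03. It also changed in some of the 6 fits that left out 1 library, over which the log2 fold changes ran from -0.14 to 0.98 for CDKN1C, -0.11 to 0.25 for SLC22A18, -0.19 to 0.01 for SGCE, -0.10 to 0.92 for HYMAI, -0.30 to 0.18 for NNAT, -0.07 to 0.37 for DIRAS3, -0.17 to 0.09 for ZDBF2 and -0.52 to 0.12 for IGF2R. PLAGL1, CDKN1C, IGF2R and SGCE were called in the fit without control replicate 3. The cause of these changes in direction was not tested.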

Other observations

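Of 30 genes known to set, read or maintain imprints, 21 were tested, and 3 fell and 1 rose (14.3% and 4.76%, beside 8.67% and 7.96% of all genes tested). Without control replicate 3, 10 of the 21 fell and 4 rose (47.6% and 19%, beside 33.2% and 32.4% of all genes). CTCF, the insulator protein that binds unmethylated imprinting control regions, had 9692, 9312 and 7493 counts across the controls against 4826, 5506 and 5121 in the knockout (log2 fold change -0.62, edgeR adjusted p = 0.0221). The histone H3K9 methyltransferase gene EHMT2 had 12235, 11908 and 8203 counts against 5251, 5980 and 5848 (-0.77, adjusted p = 0.0286). DNMT1, the maintenance DNA methyltransferase, had 31213, 28036 and 27117 counts against 18579, 20295 and 21179 (-0.37, adjusted p = 0.0439). The remodeller gene HELLS rose, with 5632, 5420 and 5974 counts across the controls against 7970, 7659 and 8167 in the knockout (0.64, adjusted p = 0.00917). CTCF, EHMT2 and DNMT1 kept the call only in the fit without control replicate 3 among the 6 that left out a library, and HELLS in 4 of those 6.

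The 9 regulators not tested were the germline and oocyte factors. ZFP57, named after its values were seen, had 32 and 25 counts in control replicates 1 and 2, 2 in control replicate 3 and then 1, 3 and 1 in the knockout. Without control replicate 3 ZFP57 could be tested, and it fell (log2 fold change -3.88, edgeR adjusted p = 1.08e-06). It is counted among the 15 regulators called in that fit.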
